A study of Mus musculus with 3 samples.

Results

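T-box factors are transcription factors that share a DNA-binding domain, the T-box, first found in the product of the mouse gene T (brachyury). The 10 genes examined here were T, Eomes, Tbx1, Tbx2, Tbx3, Tbx4, Tbx5, Tbx6, Tbx15 and Tbx20, and every probe set to which the platform annotation gives exactly 1 of these symbols was taken. The annotation named 19 probe sets for 9 of the 10 genes, out of 45101 probe sets and 18193 named genes on the array. It gave no probe set the symbol T, so brachyury was not analysed here. The total RNA was that of F9, an established line of mouse embryonal carcinoma cells, the stem cells of a teratocarcinoma, grown on gelatin in serum-containing medium and taken before the plates were full. The only group was undifferentiated F9 cells, with no treatment, allele or differentiated sample, and each of its 3 labelled replicates was measured on 1 Affymetrix mouse expression array. F9 is a single line, and nothing in the labels tells separate cultures from repeat preparations, so the p-values reflect the spread of 3 samples that may be technical repeats.

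The family is read in embryology as a set of lineage switches. Brachyury and Eomes act in the primitive streak, where Nodal and Wnt signals turn epiblast cells into mesoderm and endoderm, and Eomes also acts in the trophoblast. Tbx3 belongs to the circuit that keeps mouse embryonic stem cells undifferentiated, and later patterns limb, heart and mammary gland. Tbx6 directs paraxial mesoderm, Tbx4 and Tbx5 mark the hindlimb and forelimb fields, and Tbx1, Tbx2 and Tbx20 act in the pharynx and heart.

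The values are scaled signal intensities, 1 per probe set and array, and were asked 1 question: which T-box genes stood above background. The background was set by 126 probe sets of olfactory, vomeronasal and bitter taste receptors and keratin-associated proteins, families with narrow expression. The threshold of an array, the 95th percentile of those signals, lay at 44.6, 46.1 and 42.0 on replicates 1, 2 and 3. A probe set was called above background where limma's one-sided test of log2 signal minus log2 threshold, the log2 level below, had an adjusted p under 0.05. The label was set beside 6 pluripotency markers, which were all above background, with a summed signal of 42978 to 44450 on the 3 arrays. The markers were chosen with earlier results of these data known, so this count is a description. Of the markers of other cells the culture might hold, 2 of 6 for endoderm (Sox7 and Gata6) were above background by limma's test. For mesoderm it was 0 of 5, for fibroblasts 0 of 5 and for trophoblast 0 of 4, where 51.2% of all named genes were called. Sox7 gave 889 ± 106 (SD, n = 3; log2 level 4.32; limma adjusted p = 0.000127) and was called on 1 of its 2 probe sets. Gata6 gave 57.5 ± 3.95 (limma adjusted p = 0.0492) and was called on 1 of 3. In the 4 lists, in this order, 3, 1, 0 and 0 genes had an unadjusted p under 0.05. Probe affinity sets brightness too, so signals are not compared between genes. In bulk RNA, few cells with much of a transcript cannot be told apart from many cells with little.

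Of the 9 named T-box genes, only Eomes and Tbx3 were above background, and the 7 others were not. By probe set the count was 5 of 19 (26.3%), where 38.3% of all 44911 probe sets outside controls and background families were called. By gene, taking for each the probe set of highest mean signal, it was 2 of 9 (22.2%), where 51.2% of 18081 named genes were called. Without a test, 6 of the 19 probe sets exceeded the threshold on all 3 arrays, against 41.2% of all probe sets, and 11 lay below it on all 3, against 47.6%. The median log2 level of the 19 was -0.87, and that of all probe sets was -0.40. The 5 called probe sets ranged from a signal of 115 to 2040.1 over the arrays, and the 14 others from 1.72 to 59.1.

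**Figure D1:**
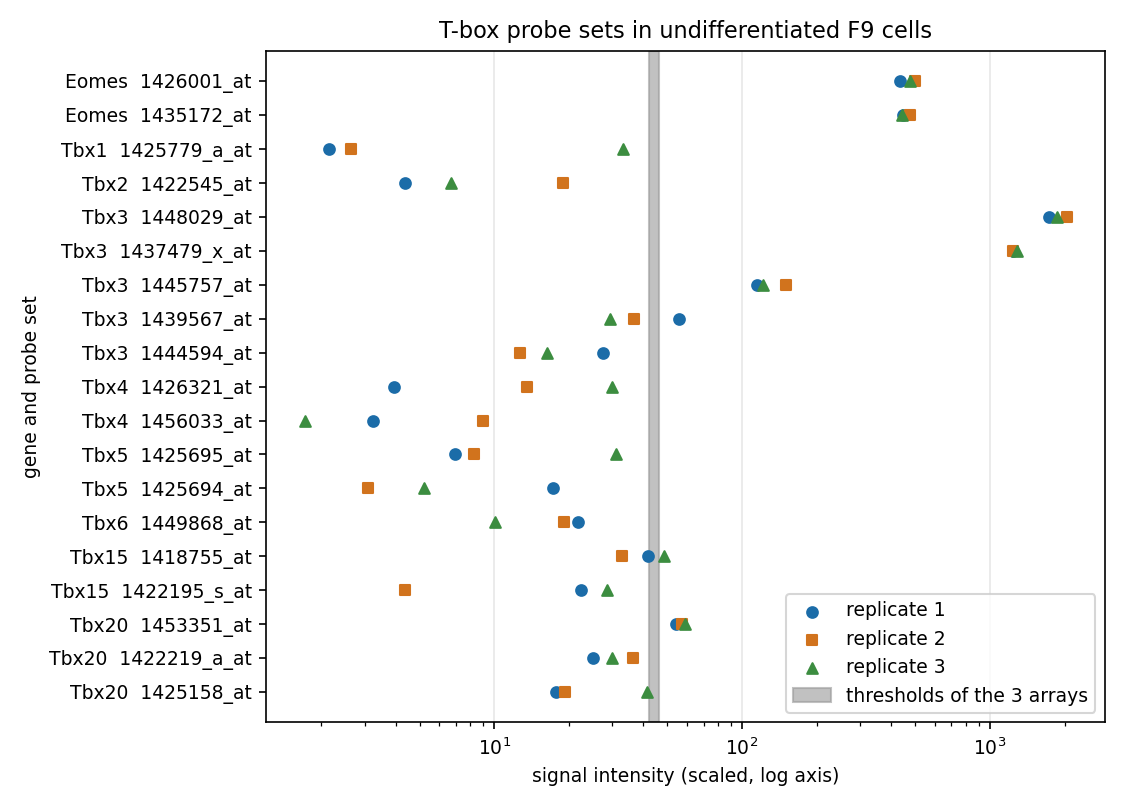
Signal intensity on a log axis of each T-box probe set, with 1 symbol per replicate array and a grey band over the 3 background thresholds (42.0 to 46.1). Both Eomes probe sets and 3 of the 5 Tbx3 probe sets lie right of the band on every array, Tbx20 1453351_at lies just right of it, and most others lie left with wide scatter.

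Eomes, the T-brain factor of primitive streak and trophoblast, was above background on both of its probe sets. Probe set 1426001_at gave signals of 436, 498 and 477 on replicates 1, 2 and 3. Probe set 1435172_at gave 444, 475 and 442. Each array was far over its threshold, and the 2 probe sets covered overlapping ranges. The log2 level of 1426001_at was 3.41 ± 0.11 (SD, n = 3; 95% interval 3.04 to 3.78; limma adjusted p = 0.000179). That of 1435172_at was 3.36 ± 0.041 (SD, n = 3; 95% interval 3.02 to 3.70; limma adjusted p = 0.000162). Both calls held in each of the 11 alternatives run on single probe sets, with a limma adjusted p, where one was computed, from 1.07e-05 to 0.00431.

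The 4 trophoblast markers fixed for the culture, Cdx2, Elf5, Gata3 and Krt7, were below the threshold on all 3 arrays, with a summed signal between 14.3 and 58.4. Of the 10 genes listed for trophoblast stem cells, where Eomes is best known, 3 were above background, a share of 30% beside 51.2% of all named genes. Cdx2, Elf5 and Gata3 are in this list as well as among the markers, so the counts overlap. In the list 4 genes had an unadjusted p under 0.05 by limma's test. Also 4 exceeded the threshold on all 3 arrays, beside 53.9% of all named genes. Cdx2, the trophectoderm factor that acts with Eomes, had a mean signal of 18.0 ± 14.1, and Elf5 of 9.57 ± 8.82 (SD, n = 3). Above background were Tfap2c (136 ± 17.7), Tead4 (106 ± 6.43) and Krt8 (282 ± 25.7), a keratin of simple epithelia. Eomes was thus measured above background beside Cdx2, Elf5 and Gata3 signals that were not.

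Genes of the signalling pathways upstream of Eomes and T were above background in large part. The list holds ligands, receptors, processing enzymes and transducers of the Nodal, Wnt and FGF pathways, and Bmp4. Of its 20 measured genes, 16 (80%) were above background, beside 51.2% of all named genes. The list was chosen with earlier results of these data known, so this count is a description. The median log2 level was 3.22, beside 0.73 over all named genes. Nodal, the ligand that induces Eomes, gave 1347 ± 96.1, its co-receptor gene Tdgf1 gave 3044 ± 164 and the nuclear partner of Smad2, Foxh1, gave 369 ± 38.9 (SD, n = 3). The exceptions were the streak ligands Wnt3 (9.55 ± 4.17), Wnt3a (9.06 ± 2.61) and Fgf8 (1.95 ± 0.490), and Lef1 (31.3 ± 15.7), a nuclear effector of Wnt. Of the ligands in the list, Wnt3, Wnt3a and Fgf8 were thus below the threshold on all 3 arrays. Nodal, Fgf4 (1884 ± 145) and Bmp4 (2410 ± 85.0; SD, n = 3) were above it.

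Genes of the primitive streak and early mesendoderm, among which Eomes and T act, were above background in 2 of 12 cases (16.7%, beside 51.2% of all named genes), with a median log2 level of -0.78, beside 0.73 over all named genes. Mixl1 had a mean signal of 13.7 ± 8.17, Gsc of 11.9 ± 11.8 and Mesp1 of 60.7 ± 12.2 (SD, n = 3), none of them called. Mixl1 and Gsc were below the threshold on every array, whereas Mesp1 was over it on every array. Of the 12 genes, 4 had an unadjusted p under 0.05 by limma's test. Also 4 exceeded the threshold on all 3 arrays, beside 53.9% of all named genes. The called genes were Cdx1 (94.6 ± 24.7; limma adjusted p = 0.0133) and Gata6 (57.5 ± 3.95; limma adjusted p = 0.0492). Leaving out replicate 1 or replicate 2 left 0 of 12 called, leaving out replicate 3 left 1, and the 90th and 99th percentile thresholds gave 4 and 0.

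A promoter sequence from the RefSeq table was matched for 6 of the 10 genes (T, Eomes, Tbx1, Tbx4, Tbx6 and Tbx20). The table had none for Tbx2, Tbx3, Tbx5 and Tbx15. Printed here are that of Eomes, the called gene with a sequence, and that of Tbx20, which holds the uncalled probe set nearest to being called. Each runs 5′ to 3′ over 240 bases upstream of the start, ending 10 bases short of it, with CG dinucleotides in capitals.
Eomes, GRCm38.p6, chr9:118477939-118478178, plus strand: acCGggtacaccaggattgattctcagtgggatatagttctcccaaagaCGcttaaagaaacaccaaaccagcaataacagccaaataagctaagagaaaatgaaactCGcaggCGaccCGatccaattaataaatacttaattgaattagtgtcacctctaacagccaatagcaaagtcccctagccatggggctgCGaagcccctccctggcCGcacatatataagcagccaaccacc
Tbx20, GRCm38.p6, chr9:24774314-24774553, minus strand: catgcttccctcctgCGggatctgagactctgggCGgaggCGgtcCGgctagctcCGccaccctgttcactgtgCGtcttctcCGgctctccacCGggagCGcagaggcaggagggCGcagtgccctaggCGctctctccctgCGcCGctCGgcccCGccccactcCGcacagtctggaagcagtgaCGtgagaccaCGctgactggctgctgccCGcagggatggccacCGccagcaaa
Over the 250 bases before the start, the Eomes promoter was 46.4% G and C with 8 CG dinucleotides, and 57% of 32841 promoters in the table had fewer. The Tbx20 promoter was 68.8% G and C with 22, and 85.2% of promoters had fewer. The medians over the table were 52.4% and 6. A T-box half-site, AGGTGTGA, was searched on both strands (TCACACCT on the other) and was found in 0 of the 7 T-box promoters, Tbx1 having 2 starts, and in 1.12% of all promoters. The absence of these letters in these windows says nothing of binding by a T-box factor.

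Tbx3, the T-box factor of the stem cell circuit, was above background on 3 of its 5 probe sets, and the probe sets differed far more from each other than the arrays did. The brightest, 1448029_at, gave signals of 1738, 2040.1 and 1867 on replicates 1, 2 and 3. Probe set 1437479_x_at gave 1242, 1241 and 1290.4. Both were far over the threshold on every array. Probe set 1445757_at gave 115, 151 and 121, also over the threshold on every array. Probe set 1439567_at gave 55.9, 36.7 and 29.4, over the threshold on replicate 1 alone. Probe set 1444594_at gave 27.5, 12.7 and 16.3, under it on all 3 arrays. The 5 probe sets kept this order of brightness on each array, and their ranges did not overlap, the closest being 27.5 for 1444594_at against 29.4 for 1439567_at.

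On the log2 scale 1448029_at stood 5.41 ± 0.11 over the threshold (SD, n = 3; 95% interval 5.04 to 5.77; limma adjusted p = 0.000114). Probe set 1437479_x_at stood at 4.83 ± 0.10 (limma adjusted p = 0.000117), and 1445757_at at 1.53 ± 0.17 (95% interval 1.13 to 1.94; limma adjusted p = 0.00163). The call of 1445757_at was therefore made at a level far below that of the other called pair, and held in each alternative with an adjusted p of at most 0.0173. The uncalled 1439567_at lay at -0.17 ± 0.44 (95% interval -0.86 to 0.52) and 1444594_at at -1.31 ± 0.58 (95% interval -2.17 to -0.44), both with a limma adjusted p of 1. The interval of 1439567_at spans the threshold, so 3 arrays do not place it above or below, whereas that of 1444594_at lies wholly below it. The array maker's suffix _x_at marks a probe set some of whose probes may also bind other sequences, and without it Tbx3 had 2 of 4 probe sets above background.

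**Figure D2:**
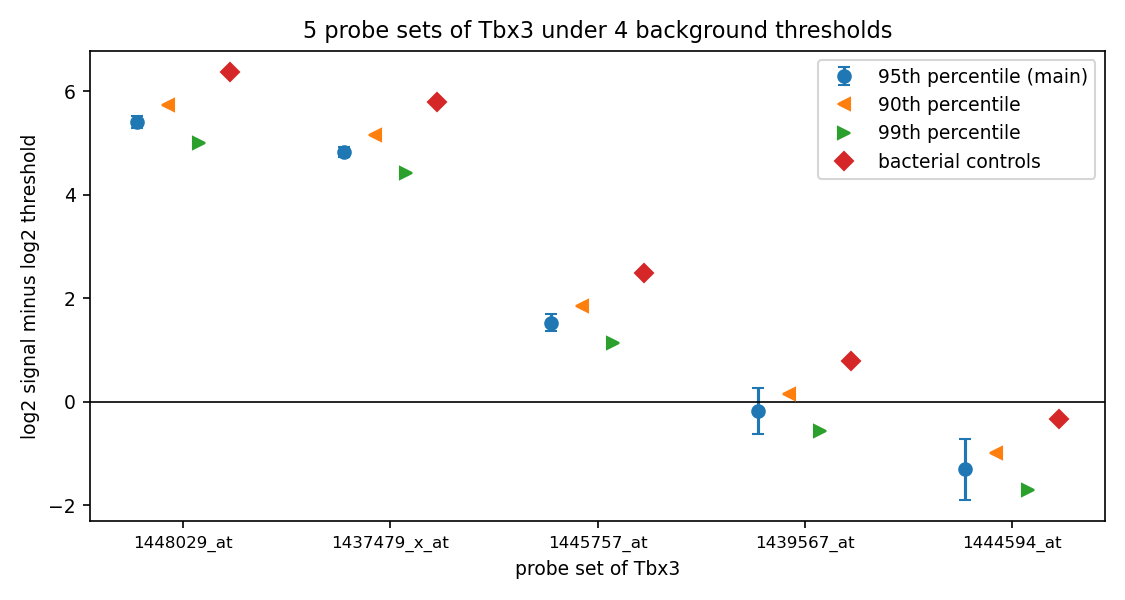
Log2 signal minus log2 threshold (mean of 3 arrays) for the 5 probe sets of Tbx3 under the main threshold, with SD bars, and under the 90th and 99th percentiles and the bacterial controls, without bars. The first 3 probe sets stay above 0 under all 4 thresholds, 1439567_at crosses 0 and 1444594_at stays below it.

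Disagreement among the probe sets of a gene was common on these arrays. Of 463 genes with exactly 5 probe sets, 314 (67.8%) had some called and some not, and 97 had 3 of 5 called as Tbx3 did. The log2 levels of the Tbx3 probe sets spanned 6.71, beside a median span of 4.52 over those 463 genes, of which 85.1% spanned less. The position of each probe set along the gene is not given in the sources used here. In the RefSeq gene table (GRCm38.p6) the noncoding gene Tbx3os1 overlaps Tbx3, and whether any of the 5 probe sets reads it was not tested. By the same source Gm33408 overlaps Eomes, and Tbx1, Tbx5 and Tbx15 also have overlapping genes. Whether the probe sets of these genes read the overlapping ones was not tested either.

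Tbx3 lay beside a naive pluripotency list in which 13 of 13 genes (100%) were above background, beside 51.2% of all named genes. The median log2 level of the list was 6.08, beside 0.73 over all named genes. Among them Lifr, the receptor of leukaemia inhibitory factor, gave 548 ± 131, its co-receptor gene Il6st 440.4 ± 40.7 and Stat3, the transcription factor that carries this signal, 241 ± 9.46 (SD, n = 3). These values are those of the brightest probe set of each gene. Lifr was called on 1 of its 3 probe sets, Stat3 on 2 of 4 and Il6st on 4 of 4. These genes were known to be high in these cells when the list was chosen, so the count is a description. Pou5f1, Sox2 and Nanog are in this list as well as among the 6 pluripotency markers, so the counts overlap.

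The 3 relatives of Tbx3 in the Tbx2 subfamily, Tbx2, Tbx4 and Tbx5, were below the threshold on all 3 arrays on each of their 5 probe sets. Tbx2, a repressor of heart chamber genes, gave 4.36, 18.9 and 6.67 on replicates 1, 2 and 3, a log2 level of -2.43 ± 1.05 (SD, n = 3; 95% interval -3.91 to -0.95). Tbx5, the forelimb and heart factor, gave 6.97, 8.30 and 31.0 on 1425695_at, and 17.2, 3.11 and 5.21 on 1425694_at. Tbx4, the hindlimb factor, gave 3.94, 13.6 and 29.8 on 1426321_at, and 3.25, 9.02 and 1.72 on 1456033_at. These signals varied between arrays by 4.34-fold to 7.56-fold, and no array was the highest throughout. The upper ends of the 95% intervals lay below the threshold for Tbx2, both Tbx5 probe sets and 1456033_at of Tbx4, and reached 0.17 for 1426321_at. In the RefSeq gene table Tbx3 and Tbx5 are the nearest protein-coding genes to each other on one side, as are Tbx2 and Tbx4. Tbx3 was thus above background next to a neighbour that was not.

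Tbx1, Tbx15 and Tbx20, of the Tbx1 subfamily, had 0 of 6 probe sets called by limma, of which 1 had an unadjusted p under 0.05. Tbx20, a factor of the heart, held that probe set, 1453351_at, with signals of 54.2, 57.1 and 59.1 on replicates 1, 2 and 3. All 3 exceeded the array's threshold, and their coefficient of variation was 4.28%. Its log2 level was 0.36 ± 0.11 (SD, n = 3; 95% interval -0.008 to 0.73; limma adjusted p = 0.068). It was called at the 90th percentile threshold (adjusted p = 0.0343) and with bacterial controls (0.00503), and lay at -0.038 at the 99th. The other 2 probe sets of Tbx20 were below the threshold on every array. Probe set 1422219_a_at gave 25.1, 36.2 and 29.9, and 1425158_at gave 17.8, 19.3 and 41.3. The gene thus rests on 1 probe set of 3 that stood at the edge of background.

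Tbx15, a factor of skin and skeleton, had 1 probe set close to the threshold and 1 below it. Probe set 1418755_at gave 41.8, 32.9 and 48.5, over the threshold on replicate 3 alone, at a log2 level of -0.12 ± 0.35 (SD, n = 3; 95% interval -0.71 to 0.46). Probe set 1422195_s_at gave 22.3, 4.37 and 28.7. With the lower threshold from bacterial controls 1418755_at was called, at 0.84 (limma adjusted p = 0.046).

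Tbx1, the factor of the pharyngeal arches, gave 2.16, 2.64 and 33.1 on its only probe set, a 15.3-fold difference between replicates 3 and 1. All 3 were below the threshold, at a log2 level of -2.95 ± 2.26 (SD, n = 3; 95% interval -6.05 to 0.16). Tbx6, the paraxial mesoderm factor, gave 21.8, 19.2 and 10.1, also below the threshold on every array, at -1.45 ± 0.54 (SD, n = 3; 95% interval -2.26 to -0.65). The interval of Tbx6 lies below the threshold, and that of Tbx1 is too wide to place it.

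None of the genes listed as acting with these factors in heart, limb and somites was called above background, where 51.2% of all named genes were called and 53.9% exceeded the threshold on all 3 arrays. The median log2 level was -1.78 in the heart and limb list and -0.14 in the presomitic list, beside 0.73 over all named genes. Of 7 measured presomitic genes that act beside Tbx6, 0 were called by limma's test, 0 by an unadjusted p under 0.05, and 0 by signal over the threshold on each array. Mesp2, a target of Tbx6, gave 59.9 ± 17.2, Dll1 46.3 ± 1.76 and Dll3 53.0 ± 13.4 (SD, n = 3), near the threshold. Of 10 heart and limb genes listed as partners of Tbx1, Tbx2, Tbx4, Tbx5 and Tbx20, 0 were called by limma's test. By an unadjusted p under 0.05 it was also 0, while Nkx2-5 (59.4 ± 13.0) was over the threshold on each array. Hand2 gave 18.4 ± 5.86 and Mef2c 14.6 ± 8.57 (SD, n = 3). The bacterial control threshold gave 3 presomitic genes and 1 heart and limb gene.

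**Figure D3:**
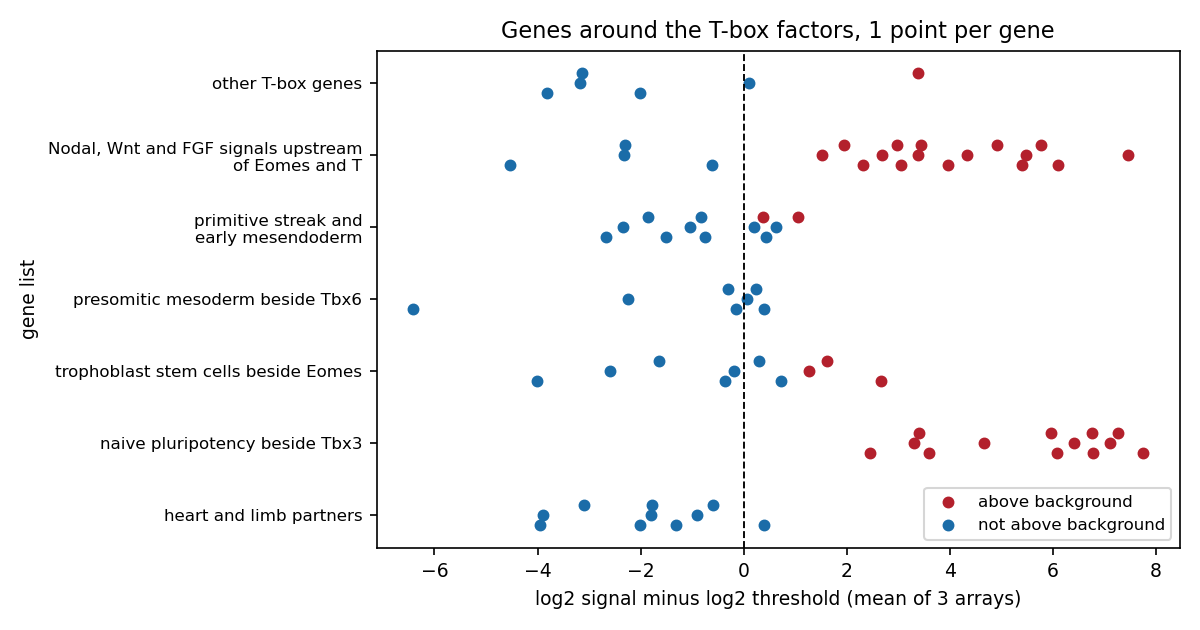
Log2 signal minus log2 threshold (mean of 3 arrays) for the genes of 7 lists, 1 point per gene from its brightest probe set, red where called above background. The naive pluripotency list lies wholly right of the threshold (13 of 13), the signalling list mostly (16 of 20), and the heart and limb and presomitic lists hold no called gene.

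The rest of the T-box family held 1 further gene above background. Of the 7 other members, 6 were named in the annotation, and Mga, the factor that joins a T-box to a Max-binding domain, was called on 3 of its 5 probe sets. Its brightest, 1431232_a_at, gave 482, 389 and 517 on replicates 1, 2 and 3, a log2 level of 3.38 (limma adjusted p = 0.000357). Tbr1, the brain factor closest to Eomes, gave 4.37, 24.4 and 12.3 and was below the threshold on every array. Tbx18 gave 22.4, 4.43 and 1.27 on its brighter probe set. Tbx19, the pituitary factor of brachyury's own subfamily, gave 44.2, 47.8 and 51.3 on its brighter probe set, over the threshold on 2 arrays and at a log2 level of 0.11 (limma adjusted p = 0.542). Over the whole family, 3 of 15 named genes and 8 of 31 probe sets were above background, beside 51.2% of all named genes and 38.3% of all probe sets. By subfamily, 1 gene was called in that of Tbr1 (Eomes, of 3 named), of Tbx2 (Tbx3, of 4) and of Tbx6 (Mga, of 2), and 0 of 5 in that of Tbx1, where 1 of 9 probe sets exceeded the threshold on all 3 arrays.

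**Figure D4:**
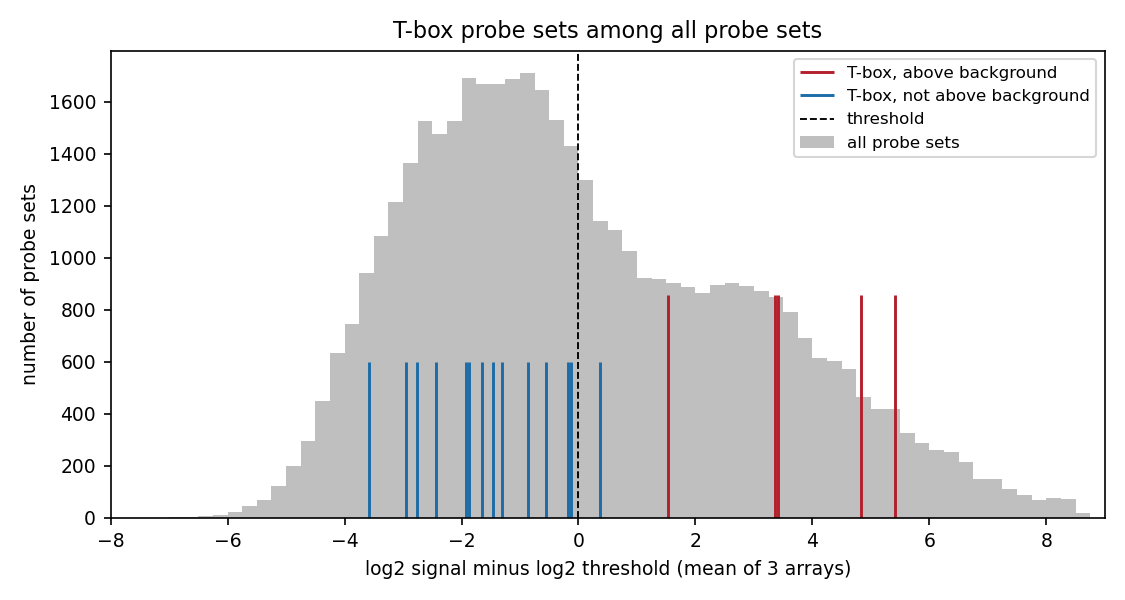
Histogram of the log2 signal minus log2 threshold of all 44911 probe sets outside controls and background families, with a vertical line for each T-box probe set. The 5 called T-box probe sets (red) lie from 1.53 to 5.41, and the 14 others (blue) from -3.58 to 0.36.

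The spread between arrays followed the signal. Over the 5 called T-box probe sets the median coefficient of variation was 6.73%, beside 9.10% for all called probe sets, and over the 14 others it was 59.2%, beside 48.9% for all uncalled ones. The steadiest was 1437479_x_at of Tbx3 at 2.24%, and the least steady was Tbx1 at 140.3%. At the signals of Tbx1, Tbx2, Tbx4 and Tbx5 a difference between arrays has no order that could be told from noise.

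**Figure D5:**
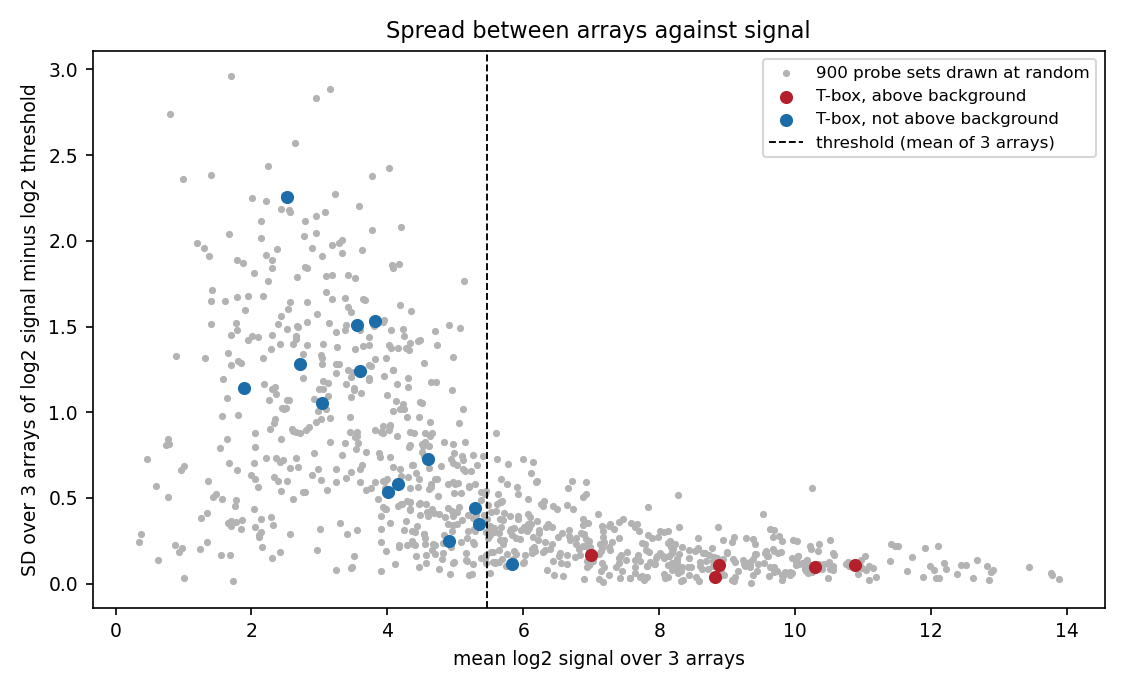
Standard deviation over the 3 arrays of log2 signal minus log2 threshold, against the mean log2 signal, for 900 probe sets drawn at random (grey) and the 19 T-box probe sets. The called T-box probe sets lie at SDs of 0.17 or less, and Tbx1 is the highest T-box point at 2.26.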

How the data were processed

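Total RNA of 3 replicates of undifferentiated F9 cells was measured on Affymetrix arrays. The authors deposited linear signal intensities, 1 per probe set, made with GCOS 1.4 per the submitters' processing notes; the summary algorithm and any detection calls or build are not stated in the labels. The deposited values had a 2% trimmed mean of 250.002 on each array, so they had been scaled, which hides changes in total RNA, and no further normalization was applied. Median signals were 37.8, 37.8 and 36.0, and the number of arrays limits the precision. Symbols came from a platform annotation of 2016: 34945 probe sets had 1 symbol, 932 several and 9160 none. Gene identifiers of 34741 were found in the GRCm38.p6 table, which changed 0 symbols.

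The test of the log2 level used limma 3.58.1 with R 4.3.3 (intercept, eBayes, one-sided, Benjamini-Hochberg over all 45101 probe sets, adjusted p under 0.05) and was checked on simulated arrays. The members and lists were chosen with earlier results of these data known. Every member probe set is named, and for each list the first 3 measured genes and up to 4 whose call differs from most of the list. For the Nodal, Wnt and FGF list the other ligands are named too, and for the naive pluripotency list the genes shared with the markers. Values are means ± SD. The first 12 alternatives are other thresholds and background sets, scaling, a pseudocount, the choice of probe set, single replicates left out and no test. A 13th, with sweet and umami taste receptors in the background, was chosen after seeing the data.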

Additional observations from a re-analysis of the deposited data

How the results depend on the processing

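Eomes and Tbx3 were both called in each of the 13 alternatives, and the number of Tbx3 probe sets called was 3 in all that were run on single probe sets. Of 209 values of single T-box probe sets under alternatives, 198 kept both their sign and their call. A further 8 changed sign, of which 1 (Tbx15 1418755_at with bacterial controls) also became called, and 3 became called without a change of sign. Bacterial controls set the lowest threshold (19.8 to 27.5), and 46.9% of all probe sets were then called against 38.3%. With them 4 T-box genes were called in place of 2, and the lists gave 2 other T-box genes, 5 streak, 3 presomitic, 6 trophoblast and 1 heart and limb gene. Log2 levels then turned to 0.79 for Tbx3 1439567_at, 0.84 for Tbx15 1418755_at, 0.41 for Tbx20 1422219_a_at and 0.10 for Tbx20 1425158_at. At the 90th percentile the levels of Tbx3 1439567_at and Tbx15 1418755_at turned to 0.15 and 0.20, and 4 streak genes and 1 heart and limb gene were called. At the 99th percentile Tbx20 1453351_at turned to -0.038 and 0 streak genes were called. Without a test, 4 streak genes and 1 heart and limb gene were over the threshold on all 3 arrays, as was Tbx20. With the sweet and umami receptors 1 streak gene was called. A change of threshold moves every level by the same amount, which accounts for these sign changes. With a replicate left out, 0 to 1 streak genes were called, and why that count changed was not tested. Tbx15 1418755_at then lay between -0.29 and 0.057, the latter without replicate 2, on which its level was lowest (-0.49). No paired analysis was possible because all replicates belong to 1 group. With 3 arrays, genes close to the threshold, such as Tbx15 and Tbx20, cannot be placed above or below it.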
